A study of Homo sapiens with 4 samples.

Results

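Ceruloplasmin and the genes of cellular iron transport were followed on 4 Affymetrix arrays, through 26 of the 54675 probe sets. These were the probe sets whose platform annotation gives a single symbol out of 10 listed genes, which were CP, HEPH, SLC40A1, TF, TFRC, FTL, SLC11A2, HMOX1, IREB2 and HAMP. They covered 9 of the 10 genes, and IREB2, which encodes an iron regulatory protein, had no such probe set and was not analysed here. RNA came from NCI-H358, a human bronchioloalveolar carcinoma line, and A549, a human lung adenocarcinoma line, both stably transduced after antibiotic selection. The groups were NCI-H358 with a CHST11 vector, NCI-H358 with an empty vector, A549 with a CHST11 vector and A549 with an empty vector, with 1 array in each. CHST11 encodes a chondroitin sulfotransferase of the Golgi. No group had a replicate culture, so differences between vectors within a line carry no p-value, the number of arrays limits the precision, and the promoter of the vectors is not given in the sources used here.

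Iron enters most cells bound to transferrin, which is taken up by the transferrin receptor and releases its iron in endosomes, where the divalent metal transporter SLC11A2 passes it to the cytosol. Surplus iron is held in ferritin or leaves through ferroportin, the product of SLC40A1, and the copper-carrying ferroxidases ceruloplasmin and hephaestin oxidise it for loading onto transferrin. Haem oxygenase 1, the product of HMOX1, frees iron from haem, while the hormone hepcidin, the product of HAMP, removes ferroportin from the cell surface. Iron regulatory proteins bind hairpins in mRNAs of this system, and thereby restrain ferritin translation and stabilise the transferrin receptor mRNA when iron is scarce.

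The hairpin of the ferritin light chain mRNA has a loop that reads CAGTGN in DNA letters. It is shown because FTL, with TFRC, is the best known case of this control, which acts in opposite directions on the 2 mRNAs. In the RefSeq sequence of FTL (GRCh38.p14, chr19:48965333-48965358, plus strand), the motif began 39 bases after the start, and its letters are in capitals.
FTL loop: gtctcttgcttcaaCAGTGTttggac
The letters CAGTGN were found on the transcript strand in 6.36% of 35116 windows of 50 bases after a gene start, so a match is a description of the sequence and not evidence of a site.

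FTL and TFRC also lay on opposite sides of the comparison between lines, so the 250 bases before their starts are shown, from RefSeq on GRCh38.p14. TFRC lies at chr3:196082091-196082340 on the minus strand and FTL at chr19:48965059-48965308 on the plus strand, each written in the direction of its gene.
TFRC: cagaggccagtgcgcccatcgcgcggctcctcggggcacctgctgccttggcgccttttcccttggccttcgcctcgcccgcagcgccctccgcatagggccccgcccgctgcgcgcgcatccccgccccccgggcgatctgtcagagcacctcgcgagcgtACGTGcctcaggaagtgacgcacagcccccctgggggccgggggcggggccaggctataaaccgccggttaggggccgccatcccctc
FTL: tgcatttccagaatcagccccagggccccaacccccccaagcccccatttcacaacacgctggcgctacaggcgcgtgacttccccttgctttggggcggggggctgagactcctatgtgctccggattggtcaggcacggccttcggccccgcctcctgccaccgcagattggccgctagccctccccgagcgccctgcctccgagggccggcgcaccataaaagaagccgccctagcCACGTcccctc
Capitals mark ACGTG, one form of the core bound by hypoxia-inducible factors, searched on both strands. TFRC held it once, beginning 88 bases before the start, and FTL once, on the opposite strand, beginning 11 bases before the start. The same letters stood in 18.5% of 35116 such windows. TGACNNNGC, the core of the antioxidant response element, whose letters can overlap ACGTG, was searched on both strands too and stood in neither window and in 10.9% of all windows. Of the 10 genes, 8 had at least 1 start window in the RefSeq table.

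The deposited values are linear signals, and a probe set was called measured in a line when either array of that line gave a signal of 27.0 or more, the 60th percentile of the deposited values. Signals under 16.1, the 50th percentile, were raised to that floor before log2 was taken. By this rule 13 member probe sets were measured in NCI-H358 and 16 in A549, out of 22443 and 22432 probe sets in all. All 6 epithelial markers examined were above the filter on each array. Below it on each were the leukocyte markers PTPRC and ITGAM, the endothelial markers CDH5 and VWF, the fibroblast markers COL1A2, PDGFRB and LUM, and the hepatocyte genes ALB, APOA1 and APOB, while PECAM1, COL1A1 and CYP3A4 of the same lists were above it on each. Some markers differed with the vector, and their part in the results was not tested. In A549 with CHST11 and empty vector, the epithelial EPCAM had 123 and 210 and the leukocyte marker CD14 had 38.4 and 24.2. In NCI-H358 the alveolar ABCA3 had 37.8 with CHST11 and 18.6 with the empty vector. The lung and alveolar markers did not share a direction between lines. NKX2-1 had 264 and 247 in NCI-H358 with CHST11 and empty vector, against 6.39 and 5.62 in A549. ABCA3 stood the other way, with 116 and 108 in A549 in that order. SFTPC had 46.7 and 51.1 in NCI-H358, against 45.9 and 51.1 in A549. SFTPB had 30.5 and 28.4, against 27.3 and 29.1, and NAPSA was below the filter on each array. The vector was visible at 1 of 3 CHST11 probe sets, 219634_at, with a signal of 1058 with CHST11 against 220 with the empty vector in NCI-H358, and 344 against 129 in A549. Where 1 gene was read by several probe sets, their log2 ratios scattered with an SD of 0.173 in NCI-H358 (5150 genes) and 0.158 in A549 (5117 genes), which serves below as the gauge of measurement error. It does not include variation from culture to culture. It was pooled over probe sets of all signal levels, so it is not specific to dim ones.

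Ceruloplasmin was the member that differed with CHST11. It was higher with CHST11 than with the empty vector in both lines at each probe set that measured it, by about 2-fold in A549 and by an amount in NCI-H358 that depended on the probe set. No other measured member reached 1.5-fold in either line. In RNA from whole cultures, fewer cells that express a gene and less of its RNA per cell cannot be told apart. This comparison asks how iron genes stood in cells that carry CHST11.

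In A549, CP probe set 204846_at read 96.0 with CHST11 and 47.9 with the empty vector. Probe set 227253_at had 107 with CHST11 and 53.2 with the empty vector, and 228143_at had 64.1 and 32.5 in the same order. Probe set 1558034_s_at had 50.2 with CHST11 and 21.8 with the empty vector. The first 3 gave log2 ratios of 1.0, 1.01 and 0.98, each far beyond the gauge of 0.158, which ranked 8th, 7th and 10th from the highest among all 22432 measured probe sets. For 1558034_s_at the empty vector array lay under the filter, so CHST11 was at least 1.86-fold higher there, against the filter value. At least 1.5-fold higher were 4 of the 16 measured member probe sets, all of CP, beside 0.58% of all measured probe sets in this line, and 0 were at least 1.5-fold lower, beside 0.722%. With arrays under the filter raised to it, as a check added after seeing the data, the count was again 4 at 1.5-fold, beside 0.33%, and 2 at 2-fold, beside 0.0267%. The 4 CP probe sets read 1 RNA sample per vector and do not stand for 4 cultures. The members were chosen with earlier results of these data known, so the counts and ranks in either line are descriptions and not a test.

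In NCI-H358, CP probe set 227253_at read 55.0 with CHST11 and 21.8 with the empty vector and so at least 2.04-fold higher, since the empty vector array lay under the filter. Probe set 204846_at had 50.8 with CHST11 and 35.1 with the empty vector, a log2 ratio of 0.53, ranking 365th of 22443 and just short of 1.5-fold. The gap between the 2 probe sets was wider than the gauge of 0.173, so the direction was shared and the size was not settled. The other 2 probe sets were below the filter on both NCI-H358 arrays, 228143_at with 20.8 with CHST11 and 13.9 with the empty vector and 1558034_s_at with 15.2 and 13.1 in that order. At least 1.5-fold higher was 1 of 13 measured member probe sets, beside 1.08% of all measured probe sets in this line, and 0 were lower, beside 0.285%. With arrays under the filter raised to it, that probe set was still past 1.5-fold, beside 0.722%, and past 2-fold, beside 0.0356%.

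**Figure D1:**
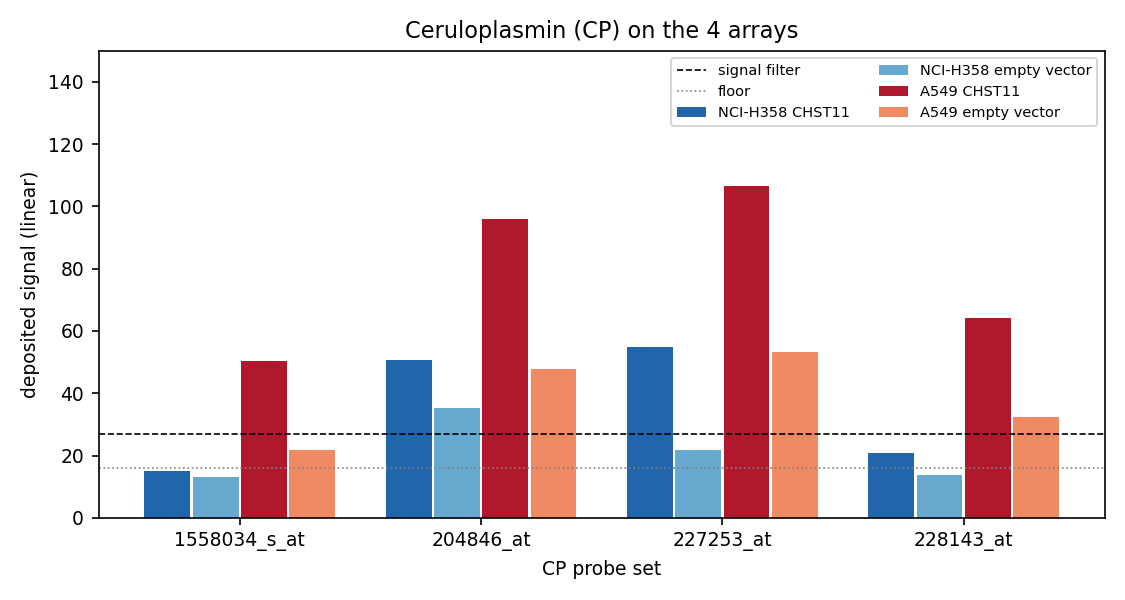
Deposited signal (linear axis) of the 4 CP probe sets on each of the 4 arrays, 1 bar per array. The CHST11 bar is taller than the empty vector bar of the same line at each probe set. In NCI-H358 the bars of 1558034_s_at and 228143_at stay under the signal filter (27.0, dashed).

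The vector difference shared by both lines was fitted with limma over 24457 measured probe sets, with the lines as the 2 replicates and 1 residual degree of freedom per probe set. CP had a fitted log2 difference, CHST11 minus empty vector, of 1.17 (SE 0.122) at 227253_at, 0.77 (SE 0.144) at 204846_at, 0.67 (SE 0.170) at 228143_at and 0.60 (SE 0.290) at 1558034_s_at. The unadjusted limma p was 0.000253, 0.0035, 0.0116 and 0.0953 in that order. For the last 2 the estimate comes mostly from A549, since neither was measured in NCI-H358, where 1558034_s_at was at the floor on both arrays and 228143_at on 1. None passed Benjamini-Hochberg adjustment over all probe sets (limma adjusted p = 1), and limma called 0% of the 24457, with 752 at an unadjusted p under 0.05, which is 3.07% of them. CP was therefore higher with CHST11 on 2 of 2 pairs of arrays, without passing the test across the array.

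A control for RNA quality also differed between the 2 A549 arrays. The control probe set for the 5′ part of GAPDH had a signal of 4946 with CHST11 and 3908 with the empty vector in A549 (log2 0.34), while that for its 3′ part had 10604 and 10325 (log2 0.04). In NCI-H358 the 5′ control had 4134 with CHST11 and 4138 with the empty vector. For ACTB the 5′ control had log2 ratios of -0.14 in NCI-H358 and 0.16 in A549. The part of this in the CP ratios was not tested.

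HEPH, the other ferroxidase among the members, stayed far below the filter. Its probe sets 203902_at and 203903_s_at had signals of 4.13 and 4.26 in NCI-H358 with CHST11 and 4.58 and 5.33 with the empty vector. In A549 they had 3.96 and 3.73 with CHST11 and 4.79 and 4.30 with the empty vector. All were under the floor, so no ratio is given.

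Among the uptake genes, TFRC, the transferrin receptor, had 3 measured probe sets whose signs did not match between probe sets. In NCI-H358, 208691_at had 5509.5 with CHST11 and 4956 with the empty vector, and 207332_s_at had 4990.4 and 5322 in that order. In A549, 208691_at had 2828 with CHST11 and 3233 with the empty vector, and 207332_s_at had 2595 and 2860.3. Probe set 237215_s_at had 163 with CHST11 and 165 with the empty vector in NCI-H358, and 77.2 against 69.2 in A549. Ratios ran from log2 -0.09 to 0.15 in NCI-H358 and from -0.19 to 0.16 in A549, about the size of the gauge. The 2 other TFRC probe sets were below the filter on all arrays.

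SLC11A2, which carries iron out of the endosome, had 4 measured probe sets. Probe set 203124_s_at had 328 with CHST11 and 280 with the empty vector in NCI-H358, and 182 against 190 in A549. Its ratios over the 4 probe sets ran from log2 -0.10 to 0.23 in NCI-H358 and from -0.06 to 0.21 in A549, and the probe set that was lowest in NCI-H358, 203125_x_at, was the highest in A549. No direction held over its probe sets in either line.

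TF, transferrin itself, was barely detected. Only 214063_s_at reached the filter, with 27.8 with CHST11 and 27.8 with the empty vector in A549, and it had 20.0 and 22.3 in NCI-H358. Probe set 203400_s_at had 14.2 with CHST11 and 7.56 with the empty vector in A549, both under the floor, and 7.94 against 7.23 in NCI-H358. No change of TF with CHST11 could be measured at these signals.

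FTL, the light chain of ferritin, was close to equal between vectors. Probe set 212788_x_at had 6910.2 with CHST11 and 7382 with the empty vector in NCI-H358, and 13422 against 13494 in A549. Probe set 213187_x_at had 4226 with CHST11 and 4369 with the empty vector in NCI-H358, and 11221 against 11041 in A549. Log2 ratios were between -0.10 and 0.02, inside the gauge. Both names end in x_at, the array's mark for probes that can bind related transcripts, and FTL has close copies in the genome, so its signal may not be of FTL alone.

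SLC40A1, the iron exporter ferroportin, had 272 with CHST11 and 238 with the empty vector in NCI-H358 (log2 0.19), and 97.6 against 96.0 in A549 (log2 0.02). HMOX1, the inducible haem oxygenase, had 78.0 with CHST11 and 81.8 with the empty vector in NCI-H358 (log2 -0.07), and 1409 against 1236 in A549 (log2 0.19). HAMP had 12.3 with CHST11 and 8.36 with the empty vector in NCI-H358, and 10.6 against 12.2 in A549, all under the floor. SLC40A1 in NCI-H358 and HMOX1 in A549 were slightly beyond the gauge of their line, a size that many probe sets reached, since the SD over all measured probe sets was 0.204 in NCI-H358 and 0.193 in A549. Without CP the median member ratio was log2 -0.02 over 11 probe sets in NCI-H358 and 0.01 over 12 in A549, beside medians of 0.01 and 0.02 over all measured probe sets.

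**Figure D2:**
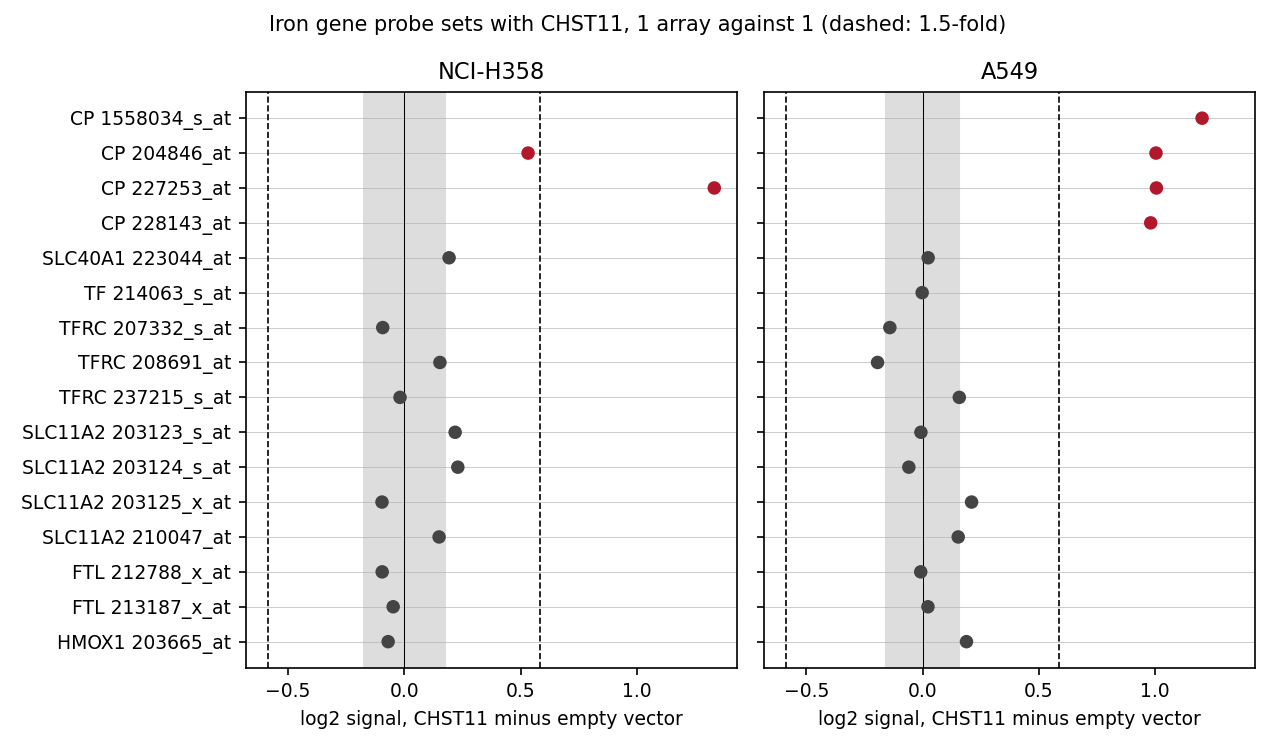
Log2 signal, CHST11 minus empty vector, of the measured member probe sets in NCI-H358 (13, left) and A549 (16, right), 1 array against 1. CP (red) lies at or beyond 0.53, while the other members lie between -0.19 and 0.23, inside the dashed 1.5-fold lines. The grey band is the SD between probe sets of a gene. For 227253_at in NCI-H358 and 1558034_s_at in A549, the empty vector array lay under the filter, so those 2 points are not exact ratios.

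A wider set of 79 genes around iron handling, in 8 lists chosen by function, stood close to equal between vectors. One probe set, the brightest, stood for each of the 71 that had one, and 55 were measured in NCI-H358 and 62 in A549. In NCI-H358, 1 gene was at least 1.5-fold lower and 0 were higher, beside 0.272% and 0.921% of all genes, and in A549, 1 was at least 1.5-fold higher and 0 were lower, beside 0.48% and 0.725%. The medians were log2 0.00 in NCI-H358 and -0.02 in A549, beside 0.00 and 0.01 over all genes. limma called 0 of the 64 fitted for the shared vector difference, as it did over all probe sets.

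The gene that was lower in NCI-H358 was SLC22A17, a receptor for the iron-binding lipocalin LCN2, with 17.6 with CHST11 and 31.3 with the empty vector. The CHST11 signal lay under the filter, though above the floor. The deposited signals were 1.78-fold apart, and with the CHST11 signal raised to the filter SLC22A17 was at least 1.16-fold lower. It had 46.2 with CHST11 and 48.1 with the empty vector in A549. The gene that was higher in A549 was C1R, a complement protease and plasma protein, with 156 with CHST11 and 71.4 with the empty vector (2.19-fold), against 42.6 on both arrays of NCI-H358. Both rest on 1 measured probe set.

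Genes of the copper supply list ran from log2 -0.04 to 0.12 in NCI-H358 and from -0.23 to 0.12 in A549. The highest by the mean of both lines was CCS, a copper chaperone (-0.04 and 0.12), and the lowest was ATP7B, a copper pump (log2 -0.11 in A549, below the filter in NCI-H358). Iron uptake genes ran up to 0.18 in NCI-H358 and 0.10 in A549, both at CYBRD1, a ferric reductase, and SLC22A17 was the lowest by the mean of both lines. Among haem handling genes, a measured SLC48A1 probe set other than the brightest had log2 -0.66 in NCI-H358. By the brightest probe sets, haem handling genes ran from -0.19 to 0.23 in NCI-H358 and from -0.20 to 0.24 in A549. Of these, BLVRB, a biliverdin reductase, was the lowest by the mean of both lines (-0.19 and 0.00), and FECH, which inserts iron into haem, the highest (0.15 and 0.08).

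The next genes are again named by the mean of both lines and need not be the extremes of either. Among genes of storage and cytosolic iron, BOLA2, a partner in iron-sulfur transfer, was the highest (32.0 with CHST11 against 23.7 with the empty vector in NCI-H358, at least 1.19-fold higher, and below the filter in A549), and GLRX3, a glutaredoxin, the lowest (-0.04 and -0.07). Among control genes, HFE, a partner of the transferrin receptor, was the highest (0.19 and 0.07) and BMP6, an inducer of hepcidin, the lowest (-0.24, below the filter, in NCI-H358 and -0.02 in A549). The HFE probe sets ran from -0.54 to 0.19 in NCI-H358 and from -0.23 to 0.57 in A549, so its direction was not settled. Among mitochondrial genes CISD1, an iron-sulfur protein, was the highest (0.07 and 0.00), and SLC25A28, an iron importer, the lowest (-0.26 and -0.12).

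Ceruloplasmin is an acute phase protein, induced by interleukin 6 in liver cells, so genes of these groups were read too. Of 3 acute phase genes measured in NCI-H358, none reached 1.5-fold (log2 -0.23 to 0.10), and of 8 in A549, C1R alone did, with the others between -0.46 and 0.40. These values are of the brightest probe sets. Another measured FGA probe set had log2 -0.64 in A549, past 1.5-fold lower. C3, the central complement protein, was the lowest by the mean of both lines (-0.23 in NCI-H358 and -0.36 in A549). Of the interleukin 6 genes, STAT3, the factor of that pathway, was the lowest (0.01 and -0.07), and SOCS3, its feedback inhibitor, the highest (0.05 and 0.25). None of the 7 measured in each line reached 1.5-fold.

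The 5 genes whose pattern over the 4 arrays was nearest to that of CP probe set 204846_at were TTYH3, CASC15, RAB11B, AHSA2P and BCAM, among 10564 genes measured in both lines. Nearness was the Euclidean distance between log2 profiles, each less its own mean, and ran from 0.43 to 0.51 for these genes. The nearest, TTYH3, had 77.3 with CHST11 and 60.7 with the empty vector in NCI-H358, and 143 against 104 in A549. Its ratios were log2 0.35 and 0.46, against 0.53 and 1.0 for CP in the same lines. Even the nearest profiles thus had smaller CHST11 ratios than CP, and a likeness over 4 arrays is a description only.

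The second comparison was between the cell lines. Relative to A549, NCI-H358 had less HMOX1, FTL and CP signal and more SLC40A1, TFRC and SLC11A2 signal. limma called 15 of the 16 fitted member probe sets at an adjusted p of 0.05, 7 higher and 8 lower in NCI-H358, beside 62% of all 24457 probe sets, of which 32.8% were higher and 29.2% lower. Of the 8 lower, CP 228143_at, CP 1558034_s_at and TF 214063_s_at were measured in A549 only, so the filter fixed their direction. Of the 13 measured in both lines, 7 were called higher and 5 lower, beside 30.9% and 26.7% of all such probe sets, and 12 were at least 1.5-fold apart, beside 36.7%. The 2 arrays of a line carry different vectors, and the fit takes out the vector difference that the lines share. The error behind these p-values is how far the vector responses of the lines departed from each other, moderated by limma over all probe sets. It does not measure variation between cultures of a line. With no filter limma called 0 members, in a fit where 24472 of 54613 probe sets were identical on all arrays at the floor. A call alone was common in this comparison, several members are probe sets of 1 gene, and the sizes are given for these reasons. Whether the arrays of the lines overlapped is given below as a description of each member. The share of all probe sets without overlap is not given here.

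HMOX1 had the largest difference of the members. Its signal was 78.0 and 81.8 in NCI-H358 with CHST11 and empty vector, against 1409 and 1236 in A549, a fitted log2 difference, NCI-H358 minus A549, of -4.05 (SE 0.113, limma adjusted p = 4.06e-05) and 16.5-fold lower in NCI-H358. A difference of at least 10-fold was found for 1.93% of all probe sets. Every A549 array stood above every NCI-H358 array, and both vector pairs gave the difference, at 18.1-fold with CHST11 and 15.1-fold with the empty vector.

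FTL was lower in NCI-H358 at both probe sets. Probe set 213187_x_at had 4226 and 4369 in NCI-H358 with CHST11 and empty vector, against 11221 and 11041 in A549 (fitted log2 -1.37, SE 0.098, limma adjusted p = 0.000408). Probe set 212788_x_at had 6910.2 and 7382, against 13422 and 13494 (fitted log2 -0.91, SE 0.098, limma adjusted p = 0.00135). The arrays of the lines did not overlap at either. The A549 signals were close to 15499, the highest of any probe set, and whether the scanner's range compressed them was not tested.

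SLC40A1 had 272 and 238 in NCI-H358 with CHST11 and empty vector, against 97.6 and 96.0 in A549. It was 2.63-fold higher in NCI-H358 (fitted log2 1.39, SE 0.104, limma adjusted p = 0.000461), with no overlap between the lines. This rests on 1 probe set, since the other, 233123_at, had signals of 12.0 and 11.0 in NCI-H358 and 9.88 and 8.74 in A549, under the floor.

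TFRC was higher in NCI-H358 at all 3 measured probe sets, by 1.73-fold at 208691_at, 1.89-fold at 207332_s_at and 2.24-fold at 237215_s_at. The fitted log2 differences were 0.79 (SE 0.124), 0.92 (SE 0.097) and 1.17 (SE 0.104), with limma adjusted p-values of 0.00464, 0.00127 and 0.000795. In each, both NCI-H358 arrays stood above both A549 arrays, as the signals given above show. The probe sets thus gave 1 direction here, where they gave none between vectors.

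SLC11A2 was higher in NCI-H358 at 3 of its 4 measured probe sets, by 1.63-fold at 203124_s_at (fitted log2 0.70, SE 0.117, limma adjusted p = 0.00556), 1.66-fold at 203123_s_at (limma adjusted p = 0.00389) and 1.59-fold at 203125_x_at (limma adjusted p = 0.00697). The 4th, 210047_at, had 43.3 and 39.0 in NCI-H358 with CHST11 and empty vector, against 46.5 and 41.8 in A549 (fitted log2 -0.10, SE 0.096, limma adjusted p = 0.394). SLC11A2 has several transcript forms with different ends, and which form each probe set reads was not examined here.

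CP was lower in NCI-H358 at the 2 probe sets measured in both lines. Their fitted log2 differences were -0.68 (SE 0.144, limma adjusted p = 0.0122) at 204846_at and -1.12 (SE 0.122, limma adjusted p = 0.00139) at 227253_at. The other 2 were measured in A549 only, so the filter fixed their direction. They had -1.32 (SE 0.170, limma adjusted p = 0.00241) at 228143_at and -1.04 (SE 0.290, limma adjusted p = 0.0301) at 1558034_s_at. For the last 3, at least 1 NCI-H358 array lay under the filter, and with NCI-H358 raised to it the fold was at least 1.96, 1.69 and 1.23. The lines overlapped at 204846_at, where NCI-H358 with CHST11, at 50.8, stood above A549 with the empty vector, at 47.9. At 227253_at the same 2 arrays had 55.0 and 53.2, so they overlapped there too. Because CP also differed with CHST11, its fold at 204846_at was 1.89 between the CHST11 arrays and 1.36 between the empty vector arrays.

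The call for TF, lower in NCI-H358 with a fitted log2 difference of -0.40 (SE 0.102, limma adjusted p = 0.023), rests on signals of 20.0 and 22.3 in NCI-H358 and 27.8 on both A549 arrays. With NCI-H358 raised to the filter, the fold was at least 1.03, so it says little about transferrin.

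**Figure D3:**
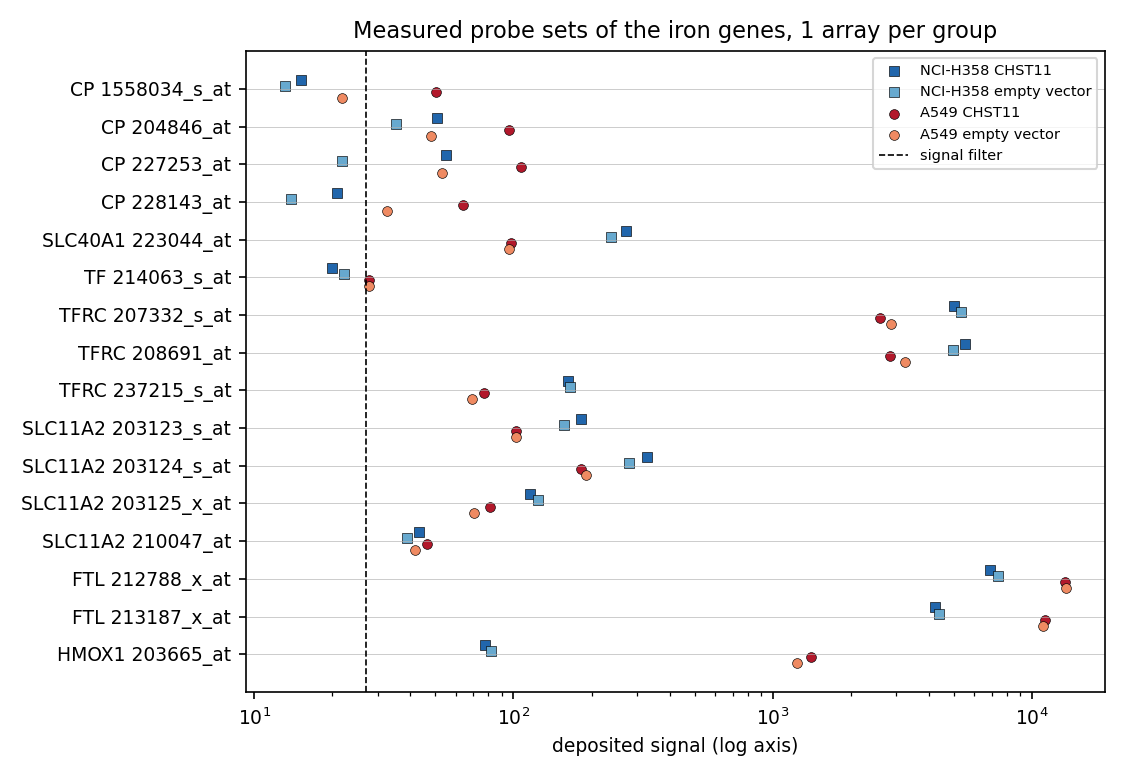
Deposited signal (log axis) of the 16 measured member probe sets, 1 point per array. Both NCI-H358 arrays (squares) lie left of both A549 arrays (circles) for FTL and HMOX1 and right of them for SLC40A1, TFRC and 3 SLC11A2 probe sets. CP is the gene whose CHST11 and empty vector points stand apart within a line.

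**Figure D4:**
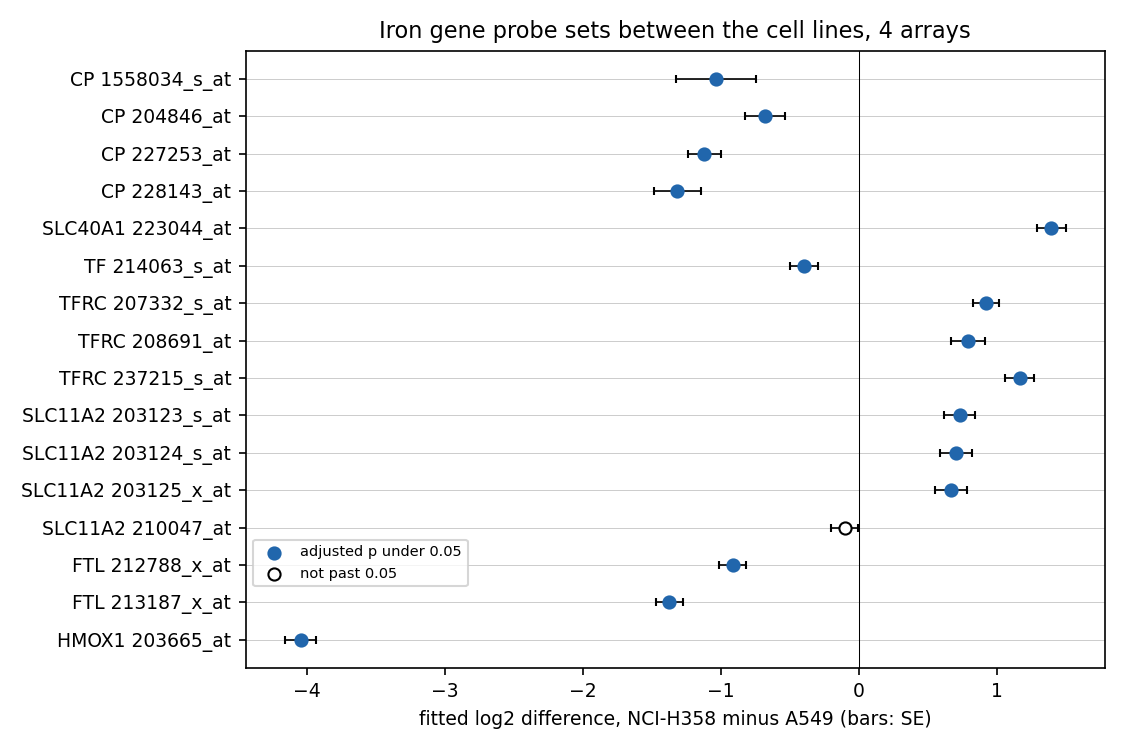
Fitted log2 difference, NCI-H358 minus A549, of the 16 measured member probe sets, with bars of 1 SE from limma over 4 arrays. HMOX1 lies at -4.05, FTL and CP between -0.68 and -1.37, and SLC40A1, TFRC and 3 of 4 SLC11A2 probe sets between 0.67 and 1.39.

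Other genes of the same steps were read for the line comparison, and of these a gene measured in only 1 line could differ in only 1 direction. Of the 9 fitted genes of haem handling, 2 were called higher and 5 lower in NCI-H358, beside 33.1% and 29.9% of all genes, 63% in all. BLVRA reduces biliverdin, the product of haem oxygenase, while BLVRB acts mainly on other forms of biliverdin. BLVRB had 417 and 476 in NCI-H358 with CHST11 and empty vector, against 1916 and 1917 in A549, 4.3-fold lower (limma adjusted p = 0.00016). BLVRA had 287 and 263 against 1016 and 988, 3.64-fold lower (limma adjusted p = 0.000181). HMOX2, the constitutive haem oxygenase, differed the other way, with 367 and 365 against 247 and 248, 1.48-fold higher in NCI-H358 (limma adjusted p = 0.00594).

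Of 10 fitted iron uptake genes, 2 were called higher and 6 lower in NCI-H358, beside 33.1% and 29.9% of all genes. LCN2, a siderophore-binding lipocalin, had 3360 and 3530 in NCI-H358 with CHST11 and empty vector, against 219 and 251 in A549, 14.7-fold higher (limma adjusted p = 3.39e-05), where 2.55% of all genes were at least 10-fold apart. CYBRD1 had 75.4 and 66.7 against 326 and 305, 4.45-fold lower in NCI-H358 (limma adjusted p = 0.000126). Of 12 fitted control genes, 2 were called higher and 6 lower, beside the same shares of all genes. Among the lower, BMP6 and ERFE were measured in A549 only, so the filter fixed their direction. BMP2, which like BMP6 can induce hepcidin, had 328 and 318 in NCI-H358, against 57.9 and 50.3 in A549, 5.99-fold higher (limma adjusted p = 9.05e-05), while BMP6 had 14.2 and 19.1 against 66.1 and 66.8, at least 2.46-fold lower (limma adjusted p = 0.000221). HAMP was under the floor in both lines.

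Of 5 fitted genes of copper supply, 0 were called higher and 3 lower in NCI-H358, beside 33.1% and 29.9% of all genes, 63% in all. ATP7A, a copper pump of the secretory pathway, had 35.3 and 32.3 in NCI-H358 with CHST11 and empty vector, against 81.4 and 95.4 in A549, 2.61-fold lower (limma adjusted p = 0.000826). ATP7B was at least 1.5-fold lower (limma adjusted p = 0.000469), but it was measured in A549 only, so the filter fixed its direction. Storage and cytosolic iron genes had 2 called higher and 2 lower of 5, and mitochondrial iron genes 2 higher and 3 lower of 7, beside the same shares of all genes. BOLA2, among the storage genes called higher, was measured in NCI-H358 only, so the filter fixed its direction. Among the mitochondrial genes, the importer SLC25A37 had 442 and 461 in NCI-H358 against 186 and 189 in A549, 2.41-fold higher (limma adjusted p = 0.0005). LCN2, BMP2, BLVRA, HMOX2, ATP7A and SLC25A37 were picked for mention after their values were seen.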

How the data were processed

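RNA of 4 cell cultures was hybridised to 1-colour Affymetrix arrays. The deposited numbers are linear intensities that the authors made with MAS5, per the submitters' processing notes. Its version and scaling target are not given in the sources. Group membership came from the labels. Signals below the 50th percentile were raised to it before taking log2. Probe sets under the 60th percentile on all arrays and 62 control probe sets stayed out of the fit. The fit had terms for vector and cell line and was made with lmFit and eBayes of limma 3.58.1 under R 4.3.3 (two-sided, Benjamini-Hochberg adjusted p of 0.05). It had 1 residual degree of freedom and a prior of 3.82, and for both terms it took as error how far the vector response of 1 line departed from the other. The fit was also run on simulated data, with changes added between lines only and with independent noise. That run covers neither the vector term nor variation between cultures. Within a line, 1.5-fold was a rule of size. Between lines, a fold is given as at least when arrays under the filter were raised to it. The platform annotation gave 1 symbol for 41091 probe sets, of which 99.9% matched RefSeq by gene ID. Pathway and nearest genes were named by a rule (at least 1.5-fold apart, or highest and lowest of a list, with exceptions named). The members and lists were chosen with earlier results of these data known. Alternatives were 3 other normalizations, other floors (one, at the filter, added after seeing the data) and filters, 1 probe set or the median of probe sets per gene, and eBayes with a trend. Tables and plots used Python 3.11.15, pandas 2.3.3, NumPy 2.4.6 and matplotlib 3.10.9.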

Additional observations from a re-analysis of the deposited data

How the results depend on the processing

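The fit already has the cell line as a term, which pairs the vectors within a line. No further block could be added, because the labels give no replicate numbers to use as one. Leaving out 1 array leaves no residual degree of freedom, so no such fit was run. Under a stricter filter (75th percentile), the member probe sets at least 1.5-fold apart with CHST11 numbered 0 in NCI-H358 and 2 in A549, since dim CP probe sets left the table. SLC22A17 also left it, so the pathway genes at that size in NCI-H358 numbered 0, as they did with an offset in place of the floor and with the floor raised to the filter, a setting added after seeing the data. For the line difference, 7 probe sets were called with 1 probe set per gene, by construction, and 0 with no filter. With no filter 24472 probe sets were identical on all arrays at the floor, and limma called 532 of 54613 in all, against 15152 of 24457. Under median centring 1 member probe set had opposite ratios beyond the gauge in the 2 lines, against 0 in the reported setting and the 6 others run for this count. Of 287 recomputed values, 8 main ones (the counts above) and 9 others moved. The call for TF between lines was lost with the offset (limma adjusted p = 0.0525) and with the floor at the filter (limma adjusted p = 0.72), where 13 members were called. None changed sign among called values. For CP in NCI-H358, the median of probe sets gave log2 0.93 in place of 0.53. limma called 0 probe sets for the shared vector difference under each of the 11 alternatives, with 373 to 2261 at an unadjusted p under 0.05. Signals near the floor limit TF, HEPH and HAMP, for which no change could be measured.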

Other observations

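Among plasma proteins that liver cells make together with ceruloplasmin, the fibrinogen chains and C1S stood further apart between the lines than any CP probe set. The CP probe sets had fitted log2 differences, NCI-H358 minus A549, from -0.68 to -1.32. C1R (fitted log2 -1.31) and CFB (fitted log2 0.77) lay within that range of sizes, and C3 was below it (fitted log2 -0.21, limma adjusted p = 0.125). The fibrinogen chains FGA, FGB and FGG had signals of 7.61 to 9.18 in NCI-H358, on the CHST11 array, and of 166, 393 and 316 in A549 with CHST11. They were at least 6.02, 17.1 and 12.2-fold lower in NCI-H358 (limma adjusted p = 4.37e-05, 4.4e-05 and 2.83e-05), and C1S, a complement protease, at least 10.3-fold lower (limma adjusted p = 5.53e-05). Interleukin 6 itself stood the other way, with 253 and 197 in NCI-H358 with CHST11 and empty vector, against 20.1 and 25.1 in A549, at least 8.28-fold higher (limma adjusted p = 0.000203). Of the 8 fitted acute phase genes, 1 was called higher and 6 lower in NCI-H358, beside 33.1% and 29.9% of all genes. FGA, FGB, FGG, C1S and SERPINA3 were measured in A549 only, so the filter fixed their direction. The same holds for IL6, which was measured in NCI-H358 only. The genes of this paragraph were picked for mention after their values were seen.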
